A study of Mus musculus with 12 samples.

Results

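The genes of respiratory complex I were taken as every row of the count table whose identifier maps to a mouse symbol beginning with Nduf, without pseudogenes. This gave 49 genes of the 26301 rows in the table, and all 49 passed the filter on low counts. They comprise 37 nuclear-encoded structural subunits, the 8 assembly factors Ndufaf1 to Ndufaf8, Ndufa4 and Ndufa4l2, which carry a complex I name although Ndufa4 is a subunit of complex IV, and Ndufb4b and Ndufb4c, close copies of Ndufb4. The pseudogenes Ndufa11b, Ndufs5-ps and Ndufs6b were left out.

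RNA was measured by sequencing of mRNA in 12 libraries in 3 groups of 4. Control libraries came from livers of adult wild-type mice. DKO libraries came from liver tumors that arose spontaneously in adult mice lacking E2f7 and E2f8 through Alb-Cre, and TKO libraries from such tumors in adult mice that lacked Rb1 as well, also through Alb-Cre. E2f7 and E2f8 are atypical E2F repressors of cell cycle genes, and Rb1 encodes the retinoblastoma protein, which restrains the activating E2Fs. The mice were bred into FVB and followed as they aged. Alb-Cre is active in hepatocytes, so that vessels, immune cells and stroma in a tumor keep these genes. The controls were not tumors, and tumor and genotype cannot be told apart in either comparison with them. In whole tissue, fewer cells of a type and less RNA per cell cannot be told apart. The study compared the groups to learn which genes change with the loss of these E2Fs and of Rb1. The p values measure the spread between these libraries.

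Complex I (NADH:ubiquinone oxidoreductase) is the entry point of electrons from NADH into the mitochondrial respiratory chain. Its matrix arm holds the NADH module, where NADH is oxidised at a flavin and electrons pass down a chain of iron-sulfur clusters, and the ubiquinone module, where they reach ubiquinone. Its membrane arm, with a proximal and a distal part, pumps protons. The catalytic core is made of subunits encoded partly in the nucleus and partly in mitochondrial DNA, accessory subunits surround it, and assembly factors build the modules but are absent from the finished enzyme. Hepatocytes are rich in mitochondria.

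Library totals were 9165812 to 16190797 counts in control, 13156779 to 16424973 in DKO and 10455159 to 16313303 in TKO. Rb1 was at 3.21 to 5.47 CPM, the count scaled by library total and TMM factor, in TKO, below the 6.52 to 10.7 of control and the 7.99 to 11.3 of DKO. E2f7 had only 4 to 24 counts in any library, and E2f8 was at 4.52 to 8.97 CPM in control, 7.59 to 45.6 in DKO and 12.3 to 52.2 in TKO. These counts cover whole genes and do not separate the deleted exons. Albumin took 6.57 to 10.1% of the counts in control, 11.9 to 22.7% in DKO, without overlap, and 4.82 to 18.9% in TKO. The 7 complex I genes of mitochondrial DNA were listed at 0 counts in all 12 libraries, so only the nuclear genes could be described. Control 2 was the highest control library for 42 of the 49 genes.

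Most complex I genes had lower values in DKO tumors than in control livers. The log2 fold change was below 0 for 46 of 49 genes, against 48.4% of all 13882 genes tested, and its median was -0.54 against 0.02 over all genes. The test (edgeR, adjusted p under 0.05) was passed by 5 genes, all lower. These were Ndufs7, Ndufs8, Ndufa12, Ndufb5 and Ndufb7, or 10.2% of the 49, where 1.01% of all genes were called lower. An unadjusted p under 0.05 and a lower value were found for 34 genes (69.4%, against 11.1% of all genes), and for 19 genes (38.8%, against 7.3%) every DKO library lay below every control library. DESeq2 called 18 of the 49 (36.7%, against 4.75% of the genes it tested). On the higher side 0 of the 49 passed by edgeR (1.41% of all genes) or by DESeq2 (5.7%), and 0 had an unadjusted p under 0.05 by edgeR (12.9%). The edgeR calls fell to 0 with any one of control 2, control 3, control 4, DKO 1, DKO 2 or DKO 4 left out. They also fell to 0 with total counts as the only scaling. Calls over all genes, in either direction, fell too. They were 336 of 13882 in the main fit, 0 to 7 with one of these libraries left out and 59 with total counts. The log2 fold change of the complex I genes stayed below 0 for 44 to 46 of the 49 in every fit that tested all of them. Without control 2 the median was -0.46.

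The 4 DKO libraries were close to each other. The mean log2 CPM over the 49 genes was 4.48, 4.54, 4.52 and 4.56 in DKO 1 to 4, and 4.76, 5.41, 5.08 and 4.88 in control 1 to 4. TKO 1 to 4 had means of 4.97, 4.68, 4.94 and 4.70. All DKO libraries were thus below all control libraries, while TKO 1 and TKO 3 lay within the control range and TKO 2 and TKO 4 just under it. The SD between libraries was 0.0322 in DKO, 0.152 in TKO and 0.285 in control. In each DKO library, 30 to 37 of the 49 genes (61.2 to 75.5%) were below the lowest control library, where 24 to 26.6% of all tested genes were. In each TKO library 8 to 22 (16.3 to 44.9%) were, where 19.8 to 24.9% of all tested genes were, and in TKO 1 (18.4% against 24.1%) and TKO 3 (16.3% against 19.8%) the share of complex I genes was under that of all genes.

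**Figure D1:**
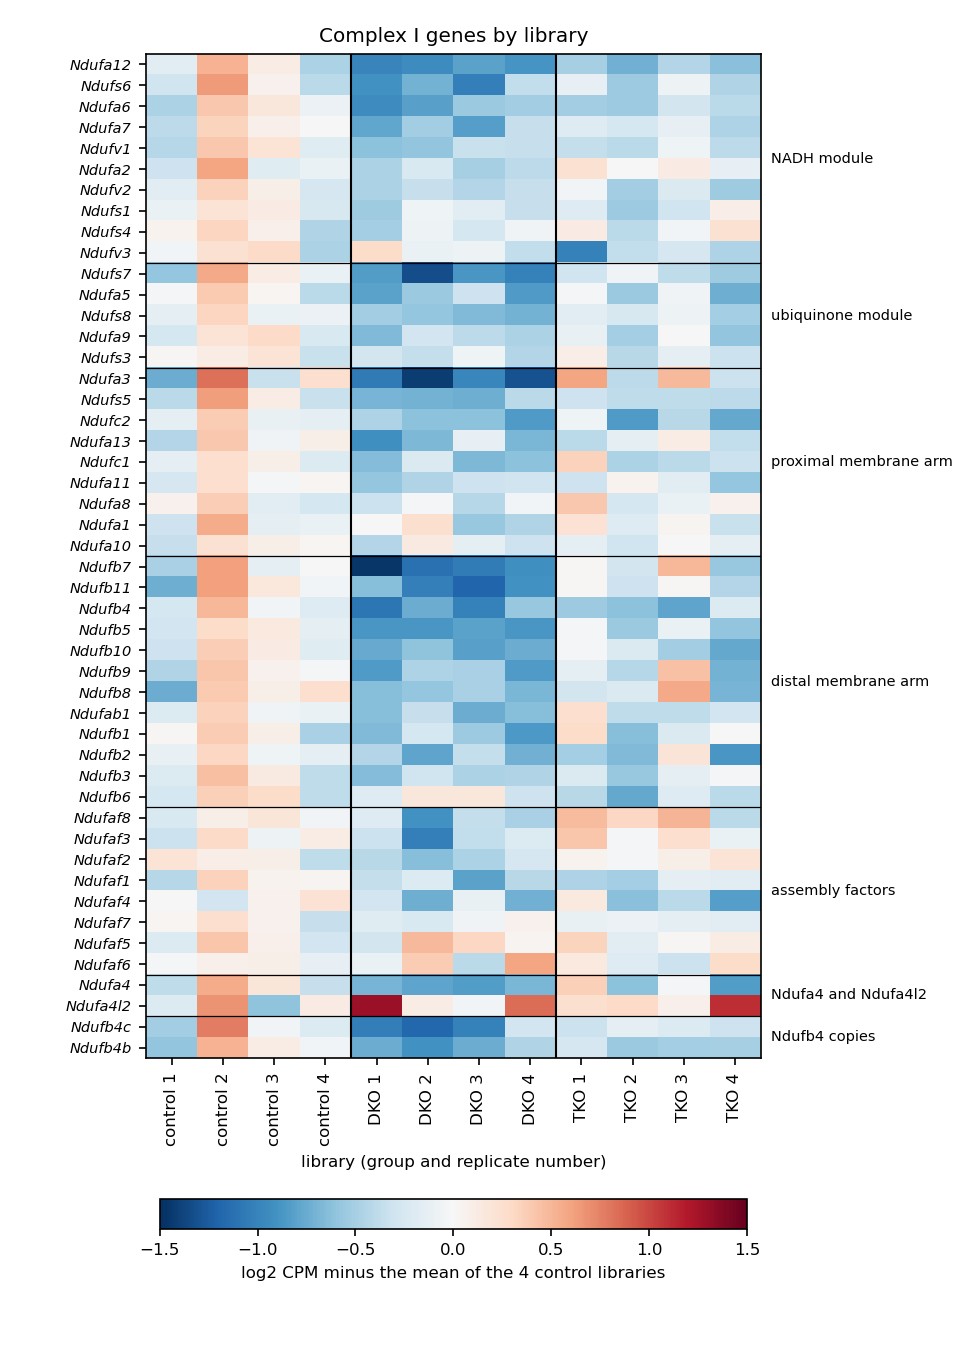
Deviation of each complex I gene described here (one line each, ordered by module) in each of the 12 libraries (one column each) from the mean of the control libraries, in log2 CPM. The 4 DKO columns are below the control mean for most genes, control 2 is above it for most, and TKO 1 and TKO 3 are nearer to it than TKO 2 and TKO 4.

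In the NADH module all 10 genes had a lower fitted value in DKO (median log2 fold change -0.47), 1 was called, and 3 had no overlap with control. Ndufa12, an accessory subunit at the junction of the matrix arm's modules, was the called gene. It was at 13.1, 21.0, 15.9 and 10.5 CPM in control 1 to 4, at 7.28, 7.51, 8.34 and 7.84 in DKO 1 to 4, and at 10.3, 8.81, 10.7 and 9.40 in TKO 1 to 4. Every DKO library was below every control library and every TKO library, and TKO overlapped the lowest control library. Its log2 fold change in DKO was -0.96 (SE 0.191, edgeR adjusted p = 0.0425). Ndufv1, which binds NADH and the flavin, had a value of -0.50 (SE 0.180, edgeR adjusted p = 0.119), and Ndufv2, an iron-sulfur subunit beside it, -0.42 (SE 0.158, edgeR adjusted p = 0.131). Ndufv2 was at 67.9 to 74.7 CPM in DKO and 79.4 to 120.2 in control, without overlap. Ndufs1, the largest iron-sulfur subunit, stood at -0.28, and its 89.6 to 123 CPM in DKO overlapped the 109.6 to 149.6 of control. Ndufv3, an accessory subunit on the flavin end, stood at -0.08 in DKO, with 106 to 166 CPM against 98.8 to 169. Ndufa6, an accessory subunit of the LYR family, was at 85.1 ± 11.9 CPM in DKO and 142 ± 35.5 in control (SD, n = 4), without overlap and with a log2 fold change of -0.73 (SE 0.181, edgeR adjusted p = 0.0538).

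In the ubiquinone module all 6 genes had lower values in DKO (median -0.55), 2 were called and 3 did not overlap. Ndufs7 and Ndufs8 carry the last iron-sulfur clusters on the way to ubiquinone, and both were called. Ndufs7 was at 19.1, 42.4, 31.0 and 26.7 CPM in control 1 to 4, at 15.9, 11.3, 15.6 and 14.2 in DKO 1 to 4, and at 23.3, 27.6, 21.9 and 19.8 in TKO 1 to 4. The DKO values were the lowest 4 of the 12, and the TKO values lay inside the control range. The log2 fold change in DKO was -1.06 (SE 0.217, edgeR adjusted p = 0.0425). Ndufs8 was at 28.9, 40.1, 29.9 and 30.1 CPM in control, at 22.2, 21.3, 20.2 and 19.5 in DKO, and at 28.5, 26.9, 30.3 and 22.3 in TKO. Again the DKO values were the lowest 4, the highest being just under TKO 4, and control 2 stood above the other controls. The log2 fold change in DKO was -0.63 (SE 0.137, edgeR adjusted p = 0.0449). Ndufs3, another core subunit of this module, had a log2 fold change of -0.29 (SE 0.154, edgeR adjusted p = 0.271) and did not pass. Over the 7 nuclear core subunits of both matrix modules the median was -0.42, with all 7 lower and 2 called.

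The distal membrane arm had the lowest median of the 4 structural modules. In it all 12 genes were lower in DKO (median -0.67), 2 were called and 7 did not overlap, and in the proximal part all 9 were lower (median -0.54), 0 were called and 5 did not overlap. Ndufb5, an accessory subunit of the distal arm, was at 60.2, 88.9, 81.4 and 66.8 CPM in control, at 40.2, 39.9, 42.2 and 40.2 in DKO, and at 72.7, 49.7, 68.7 and 48.5 in TKO. Its DKO libraries lay within a few CPM of each other and below all others, and its log2 fold change was -0.87 (SE 0.165, edgeR adjusted p = 0.0376). Annotated exons of Ndufb5 overlap, on the opposite strand, those of Mrpl47, a mitochondrial ribosomal protein gene. The log2 fold change of Mrpl47 was -0.67 (SE 0.177, edgeR adjusted p = 0.0620). Whether the counting kept the strands apart is not known, and the part of shared reads in the Ndufb5 result was not tested. Ndufb7, an accessory subunit on the intermembrane side, was at 14.2, 30.6, 18.2 and 19.9 CPM in control, at 7.13, 9.10, 9.52 and 10.4 in DKO, and at 20.2, 16.5, 28.2 and 13.4 in TKO. The DKO values were below all others and the TKO values spanned most of the control range. The log2 fold change in DKO was -1.19 (SE 0.266, edgeR adjusted p = 0.0469).

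Ndufa3, a small accessory subunit of the proximal arm, had the lowest fitted value of all 49 genes in DKO, -1.31 (SE 0.335), and did not pass (edgeR adjusted p = 0.0576). It was at 8.23, 24.7, 11.0 and 16.5 CPM in control, at 6.59, 5.06, 6.98 and 5.54 in DKO, and at 20.9, 10.5, 19.5 and 11.1 in TKO. Control 2 and control 4 were well above the other controls, and every DKO library was below the lowest of them. Ndufb11, a distal subunit, had a value of -1.0 (SE 0.241, edgeR adjusted p = 0.0510), with DKO at 29.3 to 43.2 CPM and control at 40.4 to 103, which overlap through control 1. Its annotated exons overlap those of Rbm10 on the opposite strand, and the value of Rbm10 was 0.26. Ndufc2, a proximal subunit, was at 29.5 to 38.7 CPM in DKO and 48.4 to 69.8 in control, without overlap (log2 fold change -0.65, SE 0.188, edgeR adjusted p = 0.0752). Ndufb6 had the value nearest to 0 in the distal arm, with 59.3 to 82.7 CPM in DKO, 56.2 to 94.5 in control and a log2 fold change of -0.06 (SE 0.198).

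**Figure D2:**
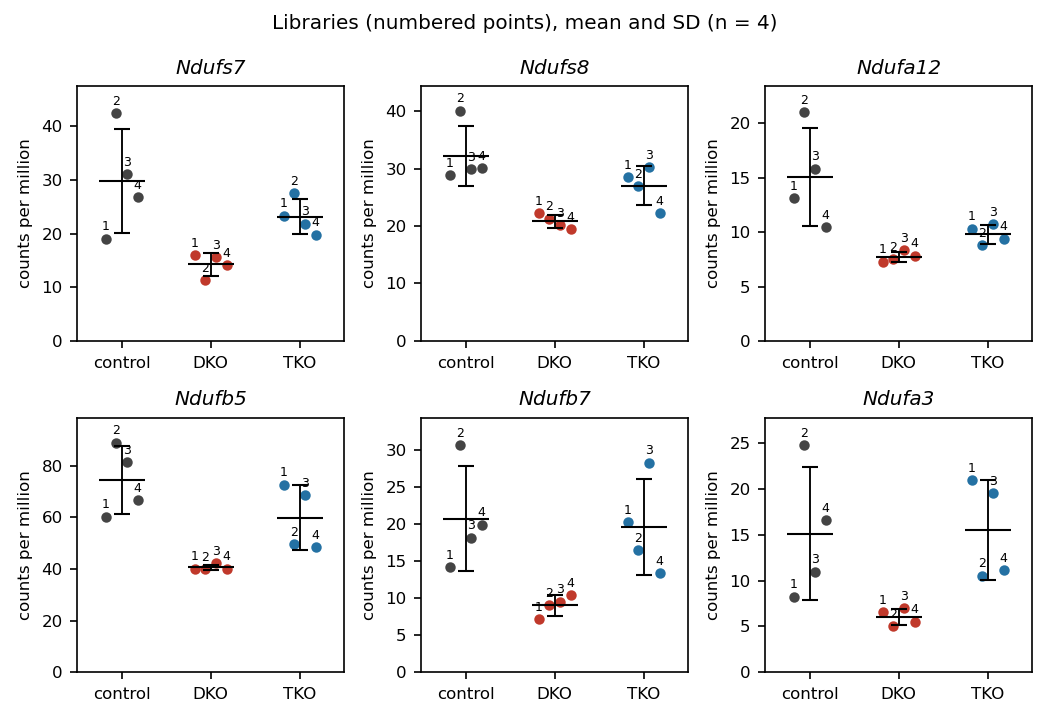
CPM in each library (points) with the mean and SD of each group (bars) for Ndufs7, Ndufs8, Ndufa12, Ndufb5, Ndufb7 and Ndufa3, 4 libraries per group. These genes were chosen for low DKO values, as those called in DKO and the one with the lowest log2 fold change there. In all of them the DKO points lie below every control point and every TKO point, and those of Ndufs7 reach 15.9 CPM in DKO against 19.1 in the lowest control. Of all 49 genes, DKO lay below every control library for 19 and below every TKO library for 11.

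The assembly factors were mixed in direction. Of the 8, 6 had a lower and 2 a higher value in DKO, with a median of -0.46, and 0 were called or without overlap. Ndufaf1, which builds the membrane arm, had a log2 fold change of -0.46, Ndufaf2, a late-acting paralog of Ndufa12, one of -0.46, and Ndufaf3 and Ndufaf4, partners in building the ubiquinone module, -0.47 and -0.45. Ndufaf8, the partner of Ndufaf5, stood at -0.49 with 1.90 to 3.22 CPM in DKO and 3.11 to 4.20 in control. Ndufaf7, a methyltransferase of the matrix, stood at -0.11. The values of Ndufaf5, which hydroxylates Ndufs7, and Ndufaf6 were 0.15 (SE 0.230) and 0.17 (SE 0.216). The control means of the 8 were 3.71 to 31.4 CPM. Among 11 measured assembly genes without an Nduf name, 9 were lower in DKO and 0 were called, with a median of -0.25, from Dmac2 at -0.80 to Tmem186 at 0.07.

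Ndufa4 was among the most abundant of the genes. Levels of different genes were compared roughly, per kilobase of transcript. The length was that of the protein-coding GENCODE vM1 transcript of median length, and whether it is the one expressed was not tested. Among 46 genes with a length, the highest control means were those of Ndufb9 (365 CPM per kilobase), Ndufa4 (259) and Ndufa6 (253). The lowest were those of Ndufaf8 (4.76), Ndufaf5 (3.92) and Ndufa4l2 (0.878). Ndufa4 was at 94.3, 180.2, 139 and 96.3 CPM in control, at 75.7, 70.8, 68.7 and 76.1 in DKO, and at 157, 80.2, 120.2 and 68.5 in TKO. DKO lay below every control library, whereas TKO ran from below DKO into the upper control range. The log2 fold change in DKO was -0.81 (SE 0.268, edgeR adjusted p = 0.10). Ndufa4l2, the hypoxia-inducible relative of Ndufa4, was barely detected, at 0.474 to 1.35 CPM in control, 0.769 to 2.15 in DKO and 0.844 to 1.87 in TKO, and had the highest fitted value in DKO, 0.69 (SE 0.443, edgeR adjusted p = 0.367). Its annotated exons overlap those of Shmt2 on the opposite strand, and the log2 fold change of Shmt2 was -0.24.

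Ndufb4 and its copies could share reads in the counting, so each is uncertain on its own. Ndufb4 itself, a distal arm subunit, was at 9.57 to 16.4 CPM in control and 5.37 to 7.72 in DKO, with a log2 fold change in DKO of -0.88 (SE 0.211, edgeR adjusted p = 0.0510). Ndufb4b stood at -0.76 (SE 0.218, edgeR adjusted p = 0.0746). With the counts of Ndufb4, Ndufb4b and Ndufb4c summed, a choice made after the values were seen, the mean was 32.9 CPM in control, 18.1 in DKO and 23.8 in TKO, and the log2 fold change in DKO was -0.86 (SE 0.205, edgeR adjusted p = 0.0497).

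**Figure D3:**
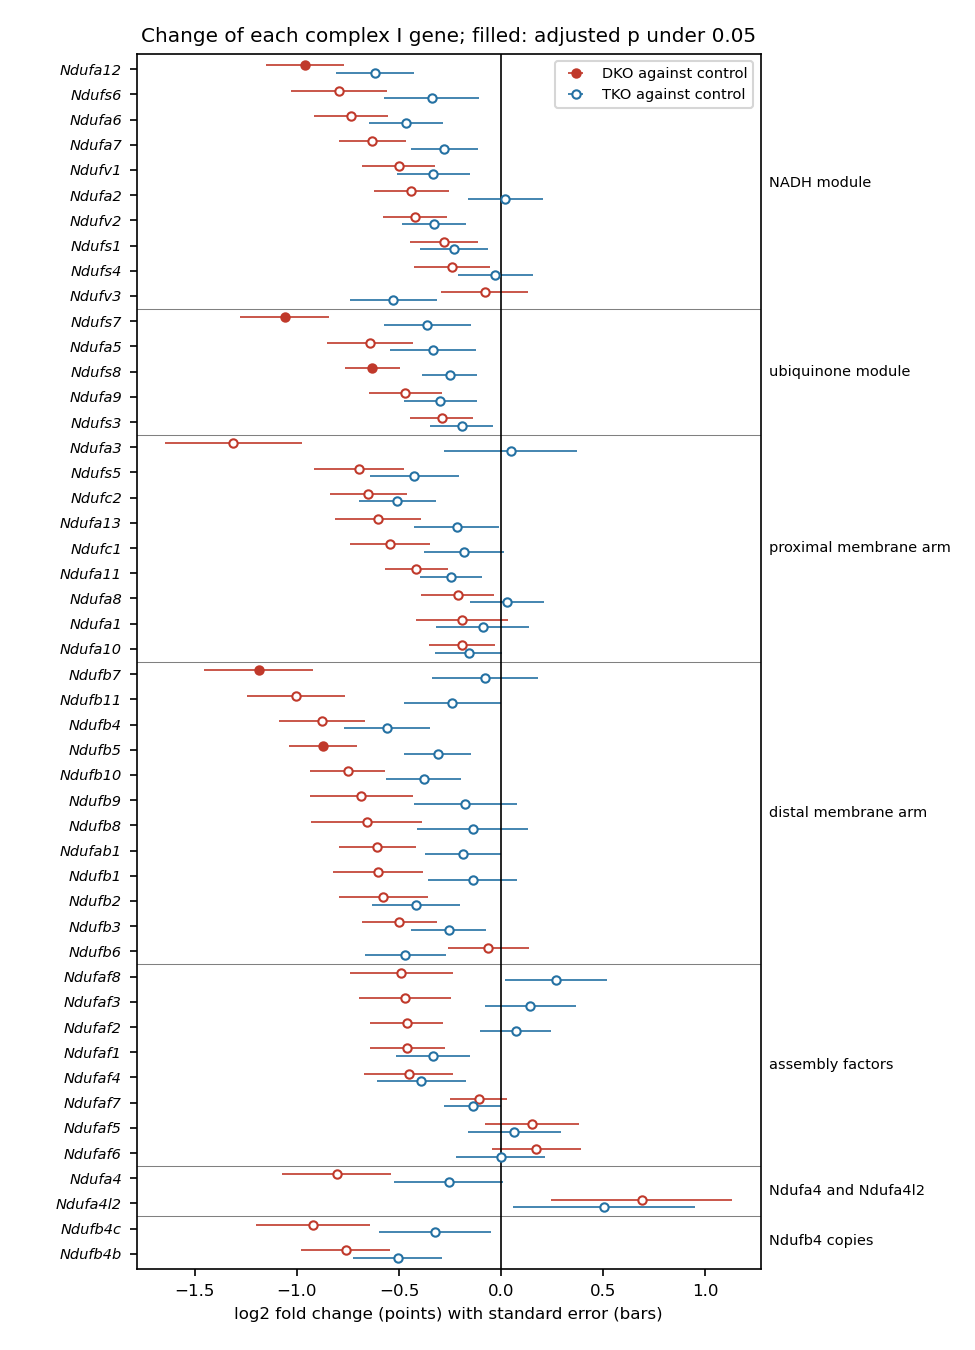
Log2 fold change of each complex I gene described here against control (points) with its standard error (bars), in DKO and in TKO, grouped by module. Filled points passed the edgeR test. The 5 filled points are all in DKO and below 0, and most TKO points lie between the DKO point and 0.

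The upstream sequences of Ndufs8, Ndufa12 and Ndufb7, called in DKO, and of Ndufa3, with the lowest value there, are shown because promoters of complex I genes are known to hold sites for shared regulators. They come from the RefSeq promoter table (GRCm38.p6), of which 42 of the 49 genes have a window, and were placed in mm9 by exact match. The windows of Ndufs7 and Ndufb5 are not printed. Only bases outside GENCODE vM1 exons are given, 5′ to 3′ in the direction of transcription. Capitals mark CCAAT, the NF-Y motif, on either strand. The stretches lie at chr19:3912775-3913024 (minus strand) for Ndufs8 and chr7:3568725-3568974 (plus strand) for Ndufa3, both ending at the transcript start, at chr10:93661530-93661699 (plus strand) for Ndufa12, ending 80 bases before it, and at chr8:86090407-86090569 (plus strand) for Ndufb7, ending 87 bases before it.
Ndufs8: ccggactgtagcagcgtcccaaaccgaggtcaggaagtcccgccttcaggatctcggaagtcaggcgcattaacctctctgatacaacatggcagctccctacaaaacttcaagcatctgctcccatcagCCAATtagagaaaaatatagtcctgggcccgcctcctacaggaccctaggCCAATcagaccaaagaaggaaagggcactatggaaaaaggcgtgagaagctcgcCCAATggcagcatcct
Ndufa12: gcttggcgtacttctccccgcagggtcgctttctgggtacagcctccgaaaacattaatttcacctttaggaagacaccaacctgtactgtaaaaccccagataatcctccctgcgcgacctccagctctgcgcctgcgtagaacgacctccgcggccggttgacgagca
Ndufb7: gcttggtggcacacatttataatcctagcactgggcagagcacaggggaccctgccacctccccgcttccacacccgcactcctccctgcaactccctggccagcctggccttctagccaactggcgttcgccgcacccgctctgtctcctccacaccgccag
Ndufa3: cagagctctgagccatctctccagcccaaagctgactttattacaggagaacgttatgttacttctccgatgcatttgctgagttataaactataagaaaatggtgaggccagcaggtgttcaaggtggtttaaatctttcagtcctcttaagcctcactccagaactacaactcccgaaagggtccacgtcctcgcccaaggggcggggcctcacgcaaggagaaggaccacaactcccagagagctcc

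Ndufs8 held 3 CCAAT matches, and the other stretches held none of the motifs searched. The Ndufb7 window has a match to the ETS core in its exon part, which is not shown.

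Motifs of 6 factors were searched on both strands in the 250 bases before each start, where 32851 windows of 27025 genes serve as the comparison. The NRF1 motif, a GC-rich run with any base at the fifth position, printed in capitals with its matches, was in the windows of 7 genes (16.7% of 42, against 3.74% of all windows), none of them among the 5 genes called in DKO. CCGGAAG, the ETS core, was in 5 (11.9% against 6.91%), AAGGTCA of the estrogen-related receptors in 3 (7.14% against 4.08%), and CCAAT in 14 (33.3% against 33.8%). AAGATGGC (YY1) and the E2F sites TTTCGCGC, TTTGGCGC, TTTCCCGC and TTTGCCGC matched in 0 of 42, where 1.56% and 1.86% of all windows did. Complex I windows were also richer in G and C (median 58.2% against 52.4%), and the NRF1 motif is itself GC-rich. Exons were not left out of these windows, and the NRF1 matches of Ndufa5, Ndufa8 and Ndufs6 lie within the GENCODE vM1 gene. The 7 NRF1 matches are shown in capitals within 30 bases of mm9 sequence before the RefSeq start, as the motif most over the share in all windows. They lie, in the order printed, at chr17:56857115-56857144 (plus strand), chr6:24477697-24477726 (minus strand), chr2:35904869-35904898 (minus strand), chr4:24825107-24825136 (plus strand), chr16:37654626-37654655 (minus strand), chr4:123395508-123395537 (minus strand) and chr13:73465931-73465960 (minus strand).
Ndufa11: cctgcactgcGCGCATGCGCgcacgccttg
Ndufa5: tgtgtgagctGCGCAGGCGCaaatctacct
Ndufa8: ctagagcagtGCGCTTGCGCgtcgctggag
Ndufaf4: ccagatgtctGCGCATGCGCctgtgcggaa
Ndufb4: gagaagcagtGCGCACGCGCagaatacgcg
Ndufs5: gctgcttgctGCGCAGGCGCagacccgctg
Ndufs6: ccgccgactgctgtGCGCCTGCGCcggcac

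The log2 fold changes of these 7 genes in DKO ran from -0.88 for Ndufb4 to -0.21 for Ndufa8, within the range of the other genes. A match in these letters was not tested as a binding site.

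Other genes of the respiratory chain had like values in DKO. All 12 tested genes of complexes II and III were lower (median -0.47, 0 called), all 9 of complex IV were lower (median -0.65, with Cox7c called at -1.02, edgeR adjusted p = 0.0409), and 11 of 12 of complex V were lower (median -0.39, 0 called). The median was -0.16 for 9 mitochondrial genes outside the chain, -0.34 for 77 mitochondrial ribosomal proteins and -0.29 for 87 cytosolic ribosomal proteins. Among 10 transcriptional regulators of mitochondrial genes, 1 was called, the coactivator Ppargc1b, at a mean of 13.1 ± 5.27 CPM (SD, n = 4) in control, 3.25 ± 0.714 in DKO and 9.35 ± 4.47 in TKO, a log2 fold change in DKO of -2.0 (SE 0.405, edgeR adjusted p = 0.0425). The median of the 10 was -0.11. Their part in the values of the complex I genes was not tested.

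**Figure D4:**
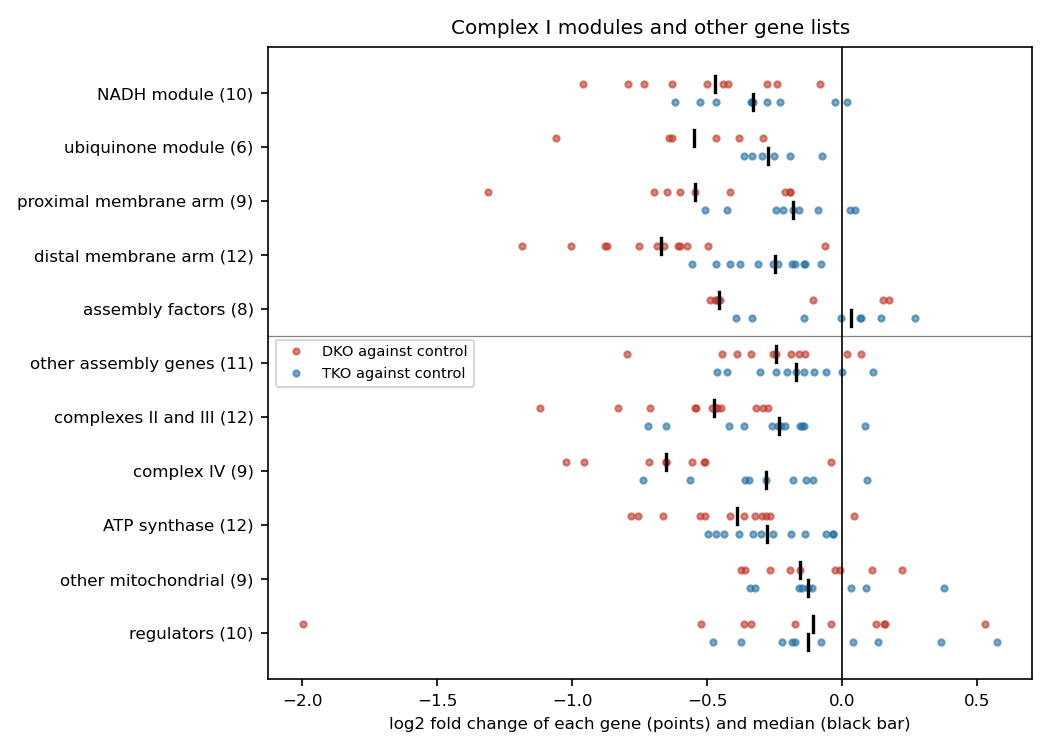
Log2 fold change of each gene (points) and the median of each list (black bars) for the complex I modules and other lists, in DKO and TKO against control, with the number of tested genes in brackets. The bars of complexes I to IV in DKO lie between -0.67 and -0.46, and those of the other mitochondrial genes and the regulators at -0.16 and -0.11.

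Transcript length and cell type markers were set beside these values. The 26 complex I genes with transcripts under 800 bases had a median of -0.65 in DKO, where all 1815 tested genes of that length had -0.10, the 16 of 800 to 2000 bases had -0.44 against -0.04, and the 4 of 2000 bases and over had -0.23 against 0.09. Across the 46 genes with a length, which share these libraries, the log2 fold change in DKO had a correlation of 0.42 with log2 length, against 0.14 over 12770 tested genes. After a correction of each library for GC content and length, the median over the 46 genes with both values was -0.48. Of these, 9 were called lower by edgeR, where 391 of 12770 tested genes were called in either direction. The summed level of hepatocyte markers was 103710 to 161466 CPM in control, 156185 to 394867 in DKO and 64857 to 274268 in TKO. This sum was mostly albumin, and 0 of 8 markers were called. By gene, 5 of the 8 had higher and 3 lower values in DKO (median log2 fold change 0.20). In TKO 3 were higher and 5 lower (median -0.06). Of 28 tested markers of bile duct, endothelial, macrophage, stellate and lymphoid cells 0 were called in either comparison, and the lists differed in direction. In DKO the median log2 fold change was 1.03 for the bile duct list (4 of 4 with higher values), 0.42 for the endothelial list (4 of 6 higher, 2 of them with an unadjusted p under 0.05 by edgeR), 0.11 for the stellate list (4 of 7 higher), -0.70 for the macrophage list (5 of 6 lower) and -0.60 for the lymphoid list (5 of 5 lower). In TKO these medians were 0.14, 0.45, 0.38, -0.13 and -0.40. The summed level in control, DKO and TKO was 28.6 to 49.4, 24.4 to 108 and 31.2 to 54.9 CPM for the bile duct list and 112 to 173, 138 to 199 and 152 to 286 CPM for the endothelial list. It was 247 to 420, 165 to 549 and 216 to 407 CPM for the stellate list, 193 to 517, 63.0 to 439 and 131 to 580 CPM for the macrophage list, and 10.2 to 31.7, 8.67 to 27.5 and 10.7 to 17.7 CPM for the lymphoid list. The part of these markers and of albumin in the result was not tested.

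In TKO tumors most complex I genes also had lower values than in control, and none passed the test. The log2 fold change was below 0 for 41 of 49 genes (83.7%, against 47.5% of all genes), with a median of -0.25 against 0.02 over all genes. By edgeR 0 of the 49 were called lower, where 0.036% of all genes were, and by DESeq2 also 0, where 1.49% were. An unadjusted p under 0.05 was found for 7 genes, all lower (14.3%, against 6.33% of all genes), and 0 genes were without overlap (3.29% of all genes). The median was -0.09 without control 2 and to -0.07 with total counts as the only scaling, where the median of all genes was 0.17. Ndufa12 was again among the low genes, with the lowest value of all, -0.62 (SE 0.190, edgeR adjusted p = 0.162). Next were Ndufb4 at -0.56, Ndufv3 at -0.53, Ndufc2 at -0.51 and Ndufb4b at -0.51. Ndufv3 was at 68.1, 106, 116 and 99.7 CPM in TKO 1 to 4 and 134, 161, 169 and 98.8 in control, so that control 4 alone fell among the TKO values. Of the genes called in DKO, Ndufs7 stood at -0.36 in TKO, Ndufb5 at -0.31, Ndufs8 at -0.25 and Ndufb7 at -0.08. The module medians were -0.33 for the NADH module, -0.28 for the ubiquinone module, -0.18 for the proximal and -0.25 for the distal arm, and 0.03 for the assembly factors, of which Ndufaf8 and Ndufaf3 had values of 0.27 (SE 0.248) and 0.14 (SE 0.224). Both comparisons use the same 4 control libraries.

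The tumor genotypes were compared directly to see whether the added loss of Rb1 went with a different level. In TKO the fitted value was higher than in DKO for 43 of 49 genes (51.2% of all genes), with a median of 0.31 against 0.01. No gene of the 13882 was called by edgeR in either direction (0%), and an unadjusted p under 0.05 was found for 11 complex I genes, all higher (22.4%, against 5.16% of all genes). For 11 genes every TKO library lay above every DKO library, against 2.75% of all genes. DESeq2 called 2 of the 49 higher, Ndufa3 and Ndufb7 (DESeq2 adjusted p = 0.0412 for both), where it called 0.171% of the genes it tested higher. Ndufa3 had the largest edgeR log2 fold change, 1.36 (SE 0.334, edgeR adjusted p = 0.398), from a mean of 6.04 ± 0.893 CPM in DKO to 15.5 ± 5.46 in TKO (SD, n = 4), and Ndufb7 had 1.11 (SE 0.265, edgeR adjusted p = 0.365), from 9.05 ± 1.39 to 19.6 ± 6.42. For both, TKO 1 and TKO 3 were the high TKO libraries. Ndufb11 and Ndufaf8 were next, both at 0.76. The other genes called in DKO had values of 0.70 for Ndufs7, 0.56 for Ndufb5, 0.38 for Ndufs8 and 0.34 for Ndufa12, with other complex I genes between them. This comparison uses the same DKO libraries as that of DKO with control. Genes picked for low DKO values there are thereby pushed towards higher values here, so the 2 comparisons are not independent. The 6 genes with a lower fitted value in TKO were Ndufv3 (-0.45, SE 0.213), Ndufb6 (-0.41, SE 0.198), Ndufa4l2 (-0.19), Ndufaf6 (-0.18), Ndufaf5 (-0.09) and Ndufaf7 (-0.03). Ndufb6 was at 42.9 to 64.4 CPM in TKO and 59.3 to 82.7 in DKO. The median was 0.44 in the distal arm, 0.31 in the ubiquinone module, 0.24 in the NADH module and the proximal arm, and 0.09 over the assembly factors. Mitochondrial and cytosolic ribosomal protein genes had medians of 0.19 and 0.28 in the same comparison, with 66 of 77 and 81 of 87 higher.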

How the data were processed

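The authors prepared libraries from poly(A) RNA of 4 livers per condition, sequenced them on a SOLiD instrument, aligned the reads to mm9 with BWA and summarised them over genes with featureCounts. Raw counts were deposited. Tool versions, strand setting and treatment of reads with several matches are not given in the sources used here. Of 26301 identifiers, 24210 had a symbol, with 99.4% of the counts.

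The quasi-likelihood test of edgeR 4.0.16, run in R 4.3.3 over all 12 libraries, used TMM scaling and filterByExpr, which kept 13882 genes. Its p values were adjusted by the Benjamini-Hochberg method over these genes, at 0.05. The steps were also run on counts simulated with known changes and the same spread setting for every gene. That run does not test how the steps deal with the spread between these libraries. A fold change is the fitted value, and log2 CPM used a prior count of 2. DESeq2 1.42.0, limma 3.58.1 (voom) and other scalings, filters, covariates and libraries were alternatives. The members and lists were chosen with earlier results of these data known. Genes were named by rule: those called, the 5 lowest and 3 highest fold changes per comparison, the core subunits, the assembly factors, Ndufa4, Ndufa4l2, and the 3 highest and 3 lowest control levels per kilobase. Ndufa8, Ndufb4c, Cox7c, Ppargc1b and the genes with NRF1 matches or overlapping exons were named after their values were seen. 1 of the members that the rule names is counted in the lists but not reported here on its own. Members had from 7 counts in a library (Ndufa4l2) to 4106 (Ndufb9). No pair of libraries of the same group was alike within sampling noise.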

Additional observations from a re-analysis of the deposited data

Results flagged for a closer look

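Single libraries stood apart from the other 3 of their group, by the gap to the nearest library over the group's range, for 6 of 90 group values tested. Chance gives about 1 in 20. In control, control 2 was apart for Ndufc2 at 69.8 CPM (the others 48.4 to 49.7) and for Ndufs8 at 40.1 CPM (28.9 to 30.1). In DKO, DKO 3 was apart for Ndufb5 at 42.2 CPM (39.9 to 40.2). In TKO, TKO 3 was apart for Ndufv1 at 118 CPM (93.1 to 95.6), TKO 1 for Ndufb4b at 8.26 CPM (6.68 to 6.94) and TKO 4 for Ndufa4l2 at 1.87 CPM (0.844 to 0.995).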

How the results depend on the processing

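The number of complex I genes called in DKO is given with the calls over all tested genes, in either direction, in brackets. It was 5 in the analysis reported (336 of 13882), 18 by DESeq2 (1518 of 14527) and 0 with total counts as the only scaling (59 of 13882). With at least 10 counts in every library it was 8 of 48 (335 of 11659). With the 8 libraries of the comparison alone it was 9 (759 of 13443), and by voom with quality weights 23 (1804 of 13882). After a GC and length correction it was 9 of 46 (391 of 12770), and at an adjusted p of 0.1 it was 18 (1460 of 13882). DESeq2 size factors gave 6 (321 of 13882). Both no filter and a covariate from the sex-linked gene Xist gave 4. For these settings the calls over all genes are not given here, so the share cannot be compared. Xist had only 1 to 6 counts in any library, so this covariate cannot adjust for sex. With one library left out the number of complex I genes called was 0 to 9. It was 0 without control 2, 3 or 4 or DKO 1, 2 or 4 (0 to 7 over all genes). It was 1 without TKO 1 (96), 3 without DKO 3 (409) and 8 without TKO 4 (388). It was 9 without control 1 (166) or TKO 3 (651). The cause was not tested. In TKO against control 0 were called in all of these, and between the tumor genotypes 0 except 2 by DESeq2. The edgeR adjusted p of the 5 genes, with that of the other tools, ran over the alternatives from 0.000349 to 0.132 for Ndufb5, 0.000943 to 0.134 for Ndufs7, 0.000834 to 0.132 for Ndufa12, 0.00219 to 0.134 for Ndufs8 and 0.00219 to 0.135 for Ndufb7. The median log2 fold change over the genes kept its direction throughout: with one library left out it was -0.61 to -0.46 in DKO, -0.33 to -0.09 in TKO and 0.24 to 0.35 between the tumors.

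The replicate number as a block gave 8 calls in DKO (509 of 13882 over all genes). Same-numbered libraries had deviations correlated at -0.174 to 0.370, and 5 of the 12 pairs were best matched with their own number, so the numbers were not taken to pair the libraries. The sample labels also carry a letter, which control 2 and control 3 share, and some letters recur between groups. What the letters stand for is not given, and they were not used in any fit. Control 2 and control 3 differed least of the control pairs, with a chi-square per degree of freedom of 19.9 against 62.7 to 74.3.

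Fold changes that turned sign were of genes not called. With total counts as the only scaling these were Ndufb6 in DKO (0.015), Ndufaf6 (0.17) and Ndufb7 (0.078) in TKO, and Ndufaf5 between the tumors (0.0016). Ndufaf6 in TKO became 0.0067 with at least 10 counts, 0.0092 with no filter, 0.0012 with 8 libraries, 0.0097 with the covariate and 0.018 after the GC and length correction, which took Ndufa3 to -0.0080. Voom gave Ndufb7 0.0064 in TKO and Ndufs1 -0.00096 between the tumors, where the covariate gave Ndufa4l2 0.079. With one library left out, values in DKO ran from -0.18 to 0.064 for Ndufb6, -0.22 to 0.02 for Ndufv3 and -0.0033 to 0.33 for Ndufaf6. In TKO they ran from -0.16 to 0.38 for Ndufa3, -0.039 to 0.22 for Ndufaf5, -0.12 to 0.089 for Ndufaf6 and -0.31 to 0.17 for Ndufb7. Between the tumors they ran from -0.50 to 0.14 for Ndufa4l2, -0.073 to 0.14 for Ndufs1, -0.20 to 0.036 for Ndufaf5, -0.33 to 0.00039 for Ndufaf6, -0.033 to 0.24 for Ndufc2, -0.0084 to 0.18 for Ndufs3 and -0.012 to 0.16 for Ndufv2. Low counts limit Ndufa4l2 most.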
